A study of Mus musculus with 7 samples.

Results

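The subject here is a set of 9 mouse genes for transcription regulators of the nephron progenitors: Six2, Six4, Eya1, Eya4, Sall1, Osr1, Wt1, Cited1 and Meox1. They were followed across dissected embryonic kidney tissue and a collecting duct cell line. The members were chosen by gene name, as every probe set of the array annotated to exactly 1 of these genes, which gave 18 probe sets of 45037 that are not controls. Six4 and Eya4 had 4 probe sets each, Eya1 had 3, Sall1 had 2 and the other five genes had 1. Where a gene is given 1 value, it is that of its brightest probe set, the one with the highest mean over all arrays, and 18193 genes were measured in this way.

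The study set renal epithelium against renal tissue that is not epithelial. Kidneys of E12.5 mouse embryos were microdissected into metanephric mesenchyme, the stalk of the ureteric bud and its tips, with 2 biological replicate arrays for each tissue. The fourth group was a single array of a freshly isolated subclone of mIMCD-3, an established mouse line derived from the collecting duct of the inner medulla and harvested as a confluent culture. The 6 tissue arrays came from an earlier study and the cell line was added later, so line and batch cannot be told apart. No genetic change or treatment was described for any group. The strain of the mice and how many embryos went into an array were not given in the sources used here.

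Nephron progenitors are the mesenchymal cells that cap each tip of the ureteric bud and give rise to the epithelium of the nephron. Six2 keeps them from differentiating, EYA proteins act as co-activators of the sine oculis family, to which Six2 and Six4 belong, and OSR1, WT1 and SALL1 are zinc finger proteins that the early metanephric mesenchyme needs. Together with HOX proteins these factors support the production of GDNF, the growth factor that makes the bud branch, while the progenitors themselves depend on signals from the bud. The dissections therefore separate 2 tissues that touch each other in the embryo. In such bulk samples fewer cells of a type and less RNA per cell cannot be told apart.

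Values are log2 of the intensities from robust multichip analysis (RMA), and a difference of 1 is a change by a factor of 2. Differences of genes carry the standard error (SE) of 1 limma fit over the 6 tissue arrays. A gene was called when its p, adjusted over all genes by the Benjamini-Hochberg method, was under 0.05. For probe sets other than the brightest, SE and adjusted p come from a separate fit of this kind over all 45037 probe sets. Adjusted p from these fits is not on the same scale. Precision is limited by the small number of arrays. Array medians lay between 45.5 and 49.0 on the linear scale in tissue and at 42.0 in mIMCD-3, and replicates correlated across probe sets at 0.990 to 0.997. The labels fitted the markers of the bud: all 9 bud epithelium genes, among them Cdh1 for E-cadherin, were called higher in stalk and in tip than in mesenchyme. Their summed linear intensity was 479 to 530 in mesenchyme, 18069 to 18297 in stalk and 31858 to 34251 in tip.

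In the tip, 7 of the 9 regulators were lower than in mesenchyme: Six2, Eya1, Eya4, Sall1, Osr1, Wt1 and Meox1. Their differences ran from -2.96 to -4.40, and over all genes 8.37% were called lower in this comparison. Six4 was called higher, as were 7.38% of all genes, and Cited1 was not called. The same 7 genes were lower in stalk than in mesenchyme, with differences of -1.03 to -2.87 against a background of 1.24% of all genes; 0 were higher there, beside 4.3% of all genes. They were also lower in tip than in stalk, where the background was 6.97%, and 0 were higher, beside 2.86%. The median difference of the 9 genes was -1.64 for stalk against mesenchyme, -3.03 for tip against mesenchyme and -1.32 for tip against stalk, beside medians over all genes of -0.04, 0.01 and 0.07. The first pair of these comparisons share the mesenchyme arrays.

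**Figure D1:**
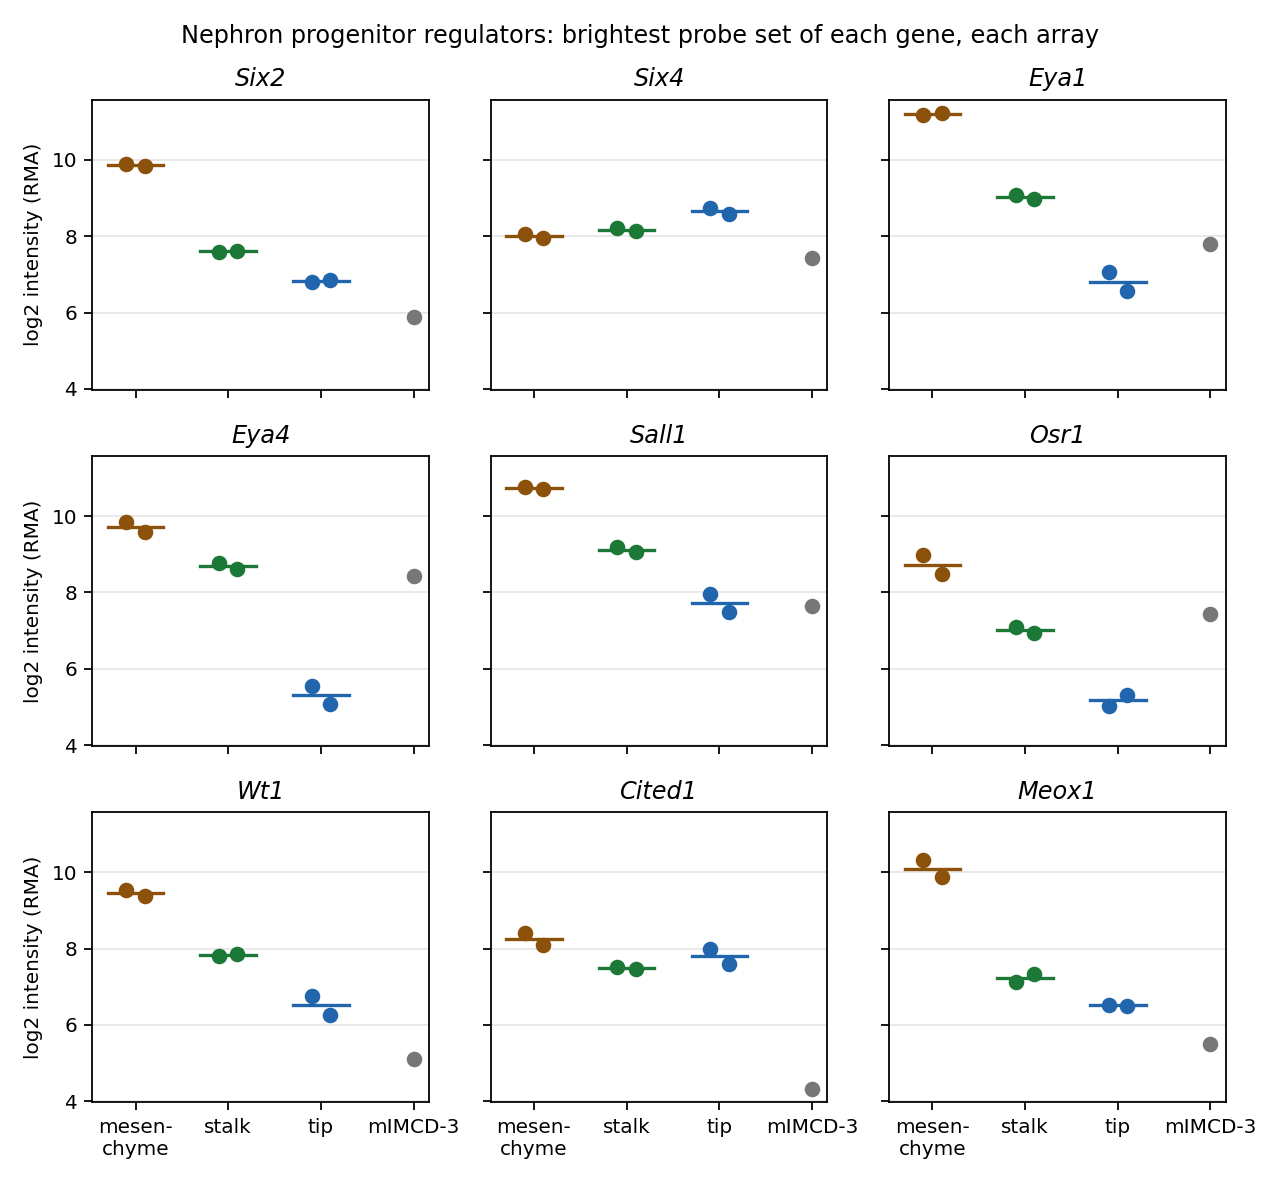
Log2 RMA intensity (y axis) of the brightest probe set of each of the 9 genes on each of the 7 arrays, by group (x axis); points are arrays and short lines are means of 2. Six2, Eya1, Eya4, Sall1, Osr1, Wt1 and Meox1 step down from mesenchyme to stalk to tip, Six4 is highest in tip, and the Cited1 points of the 3 tissues lie between 7.47 and 8.42. Levels of different genes are not comparable.

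The first group of members is that of Six2 and Six4, homeobox factors of the sine oculis family, which bind DNA directly. The arrays read Six2 at 9.88 and 9.84 in mesenchyme, 7.58 and 7.63 in stalk and 6.80 and 6.86 in tip. The groups did not overlap, and the replicates of a group lay closer together than any pair of groups. Six2 was 4.78-fold lower in stalk than in mesenchyme (difference -2.26 ± 0.12, SE, 2 arrays a group; limma adjusted p = 4.78e-05), the difference with rank 6 from the lowest among 18193 genes. Against mesenchyme it was 8.15-fold lower in tip (-3.03 ± 0.12). From stalk to tip the further step was -0.77 ± 0.12 (limma adjusted p = 0.00593). That step was not called without stalk replicate 1 (adjusted p = 0.0653) or without stalk replicate 2 (adjusted p = 0.0792), over a range of 0.00108 to 0.0792 for all alternatives. Six2 thus made most of its fall between mesenchyme and stalk: the stalk difference was 74.6% of the tip difference.

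Six4, a family member with wider expression, went the other way. Its brightest probe set read 8.05 and 7.96 in mesenchyme, 8.21 and 8.13 in stalk and 8.75 and 8.59 in tip. Tip lay above both other tissues on every array. Six4 was 1.59-fold higher in tip than in mesenchyme (0.67 ± 0.13; limma adjusted p = 0.0100), and this call was lost without mesenchyme replicate 2 (adjusted p = 0.0738; 0.00155 to 0.0738 over the alternatives). Tip against stalk differed by 0.50 ± 0.13, which just missed the threshold (limma adjusted p = 0.0517) and was called with the replicate number as a block (adjusted p = 0.0102), under a robust trended variance, after median centring of the arrays, without the dimmest 40% of genes and without tip replicate 2 (0.0102 to 0.357 over the alternatives). Stalk against mesenchyme was not called, at 0.17 with a 95% confidence interval of -0.13 to 0.46. Of the other three Six4 probe sets, 1439753_x_at was also called higher in tip than in mesenchyme (0.73 ± 0.15), 1425767_a_at had 0.61 ± 0.19 and was called with the block (adjusted p = 0.00582 against 0.0979), and 1427701_a_at had 0.12 ± 0.19.

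Promoter sequences from RefSeq (assembly GRCm38.p6) were at hand for 5 of the 9 genes, Six2, Six4, Eya4, Sall1 and Cited1, in 11 windows of 250 bases before an annotated start. The window farthest upstream is shown for 4 of them, chosen because Six2 and Six4 moved in opposite directions, Eya4 fell in both bud tissues and Cited1 was not called. All lie on the minus strand and are written 5′ to 3′ as the gene reads: Six2 at chr17:85688255-85688504, Six4 at chr12:73113426-73113675, Eya4 at chr10:23349944-23350193 and Cited1 at chrX:102252182-102252431. Capitals mark matches, on either strand, to the 7 motifs searched.
Six2: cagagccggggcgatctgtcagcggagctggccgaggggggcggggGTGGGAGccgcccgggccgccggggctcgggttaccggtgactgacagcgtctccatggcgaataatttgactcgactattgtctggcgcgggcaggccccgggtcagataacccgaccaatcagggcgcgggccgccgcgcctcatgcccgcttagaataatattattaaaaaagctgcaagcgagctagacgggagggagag
Six4: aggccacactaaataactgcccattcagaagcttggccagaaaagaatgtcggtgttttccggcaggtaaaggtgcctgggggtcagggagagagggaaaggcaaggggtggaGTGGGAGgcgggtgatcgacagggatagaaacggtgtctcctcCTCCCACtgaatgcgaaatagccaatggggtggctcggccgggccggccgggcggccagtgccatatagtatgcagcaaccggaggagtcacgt
Eya4: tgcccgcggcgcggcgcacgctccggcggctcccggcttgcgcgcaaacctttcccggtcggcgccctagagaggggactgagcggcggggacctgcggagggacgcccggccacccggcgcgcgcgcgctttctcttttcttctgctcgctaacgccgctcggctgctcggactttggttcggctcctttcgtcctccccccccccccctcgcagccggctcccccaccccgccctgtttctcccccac
Cited1: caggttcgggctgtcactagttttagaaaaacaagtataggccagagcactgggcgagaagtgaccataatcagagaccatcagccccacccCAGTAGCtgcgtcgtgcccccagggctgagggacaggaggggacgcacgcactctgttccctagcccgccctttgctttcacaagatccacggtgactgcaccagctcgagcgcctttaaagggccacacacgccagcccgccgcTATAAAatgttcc

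The motifs were GGTATCA for sine oculis family proteins, TCAGGTT of the MEF3 type, also bound by them, CAGTAGC for OSR proteins, GTGGGAG from the core of a WT1 element, TTTACGA and TTTATGG of the HOX11 type, and TATAAA. None of the letter strings contains another. The window of Six2 held GTGGGAG once, from 204 bases before the start, and that of Six4 held it on each strand, at 137 and 94 bases before the start. This string occurred in 8.25% of 32851 promoter windows of the same length. In the Cited1 window CAGTAGC lay 158 bases and TATAAA 13 bases before the start, strings found in 3.03% and 12.4% of windows. A second Cited1 window held TATAAA, a second Six4 window, nearer the gene, held TCAGGTT (3.49% of windows), and no match was found in the Eya4 and Sall1 windows. All 11 windows were above the median of all windows in GC content (56.4% to 78.4% against 52.4%) and in CpG count (9 to 35 against 6). These include the windows of Six4 and Cited1, which were not called lower in the main fit. A match is a string of letters and not a measured site.

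On their brightest probe sets the EYA co-activators had the lowest tip values of the set relative to mesenchyme, an order that was lost when a gene's probe sets were averaged (-3.58 for Meox1, -3.56 for Osr1, -2.88 for Eya1 and -2.43 for Eya4). Eya1, which partners Six2 and its relatives and is needed for the metanephric mesenchyme to form, read 11.17 and 11.23 in mesenchyme, 9.09 and 8.98 in stalk and 7.05 and 6.55 in tip. The 3 tissues were well separated, with the wider replicate gap in tip. Its stalk difference was -2.17 ± 0.18 and its tip difference -4.40 ± 0.18, a 21.1-fold lower level (limma adjusted p = 0.000369 and 5.31e-06). Between tip and stalk lay -2.23 ± 0.18 (limma adjusted p = 0.000232). A second Eya1 probe set, 1421727_at, read 8.87 and 8.88 in mesenchyme, 6.91 and 6.88 in stalk and 5.76 and 6.16 in tip, in the same order. The third, 1443117_at, was dim: it read 5.10 and 4.57 in mesenchyme and fell below the lower quartile of all 4 bud arrays, so it could show no step from stalk to tip (-0.03 ± 0.20). Averaged over its probe sets, Eya1 had a tip against stalk difference of -1.07.

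Eya4 is a paralog of Eya1. Its brightest probe set read 9.86 and 9.57 in mesenchyme, 8.76 and 8.62 in stalk and 5.55 and 5.08 in tip. Stalk lay below mesenchyme but nearer to it than to tip, which stood far below both. The stalk difference was -1.03 ± 0.19, which was called (limma adjusted p = 0.0199) but not without mesenchyme replicate 1 (adjusted p = 0.109), stalk replicate 1 (0.0646) or stalk replicate 2 (0.111), over a range of 0.000646 to 0.111. Tip was 21.1-fold lower than mesenchyme (-4.40 ± 0.19) and 10.4-fold lower than stalk (-3.38 ± 0.19; limma adjusted p = 4.94e-05). The stalk difference was 23.3% of the tip difference, and it was 49.3% for the brightest Eya1 probe set. Whether this share differs between genes was not tested. Probe set 1456665_at read 7.62, 7.38, 6.57, 6.59, 3.82 and 4.01 on the same arrays in the same order, with a share of 25.6%. Probe set 1456647_a_at went against this: it was called lower in stalk (-1.12 ± 0.16; limma adjusted p = 0.00889) and had -1.70 ± 0.16 in tip, a share of 66.0%, near the 67.9% of Eya1 1421727_at. Its step from stalk was called with the replicate block (adjusted p = 0.0311 against 0.0953). The fourth, 1432461_at, lay below the lower quartile of every array, between 3.65 and 4.04 in tissue. The mean over the 4 probe sets gave Eya4 differences of -0.72, -2.43 and -1.71 in the order stalk, tip and tip against stalk.

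**Figure D2:**
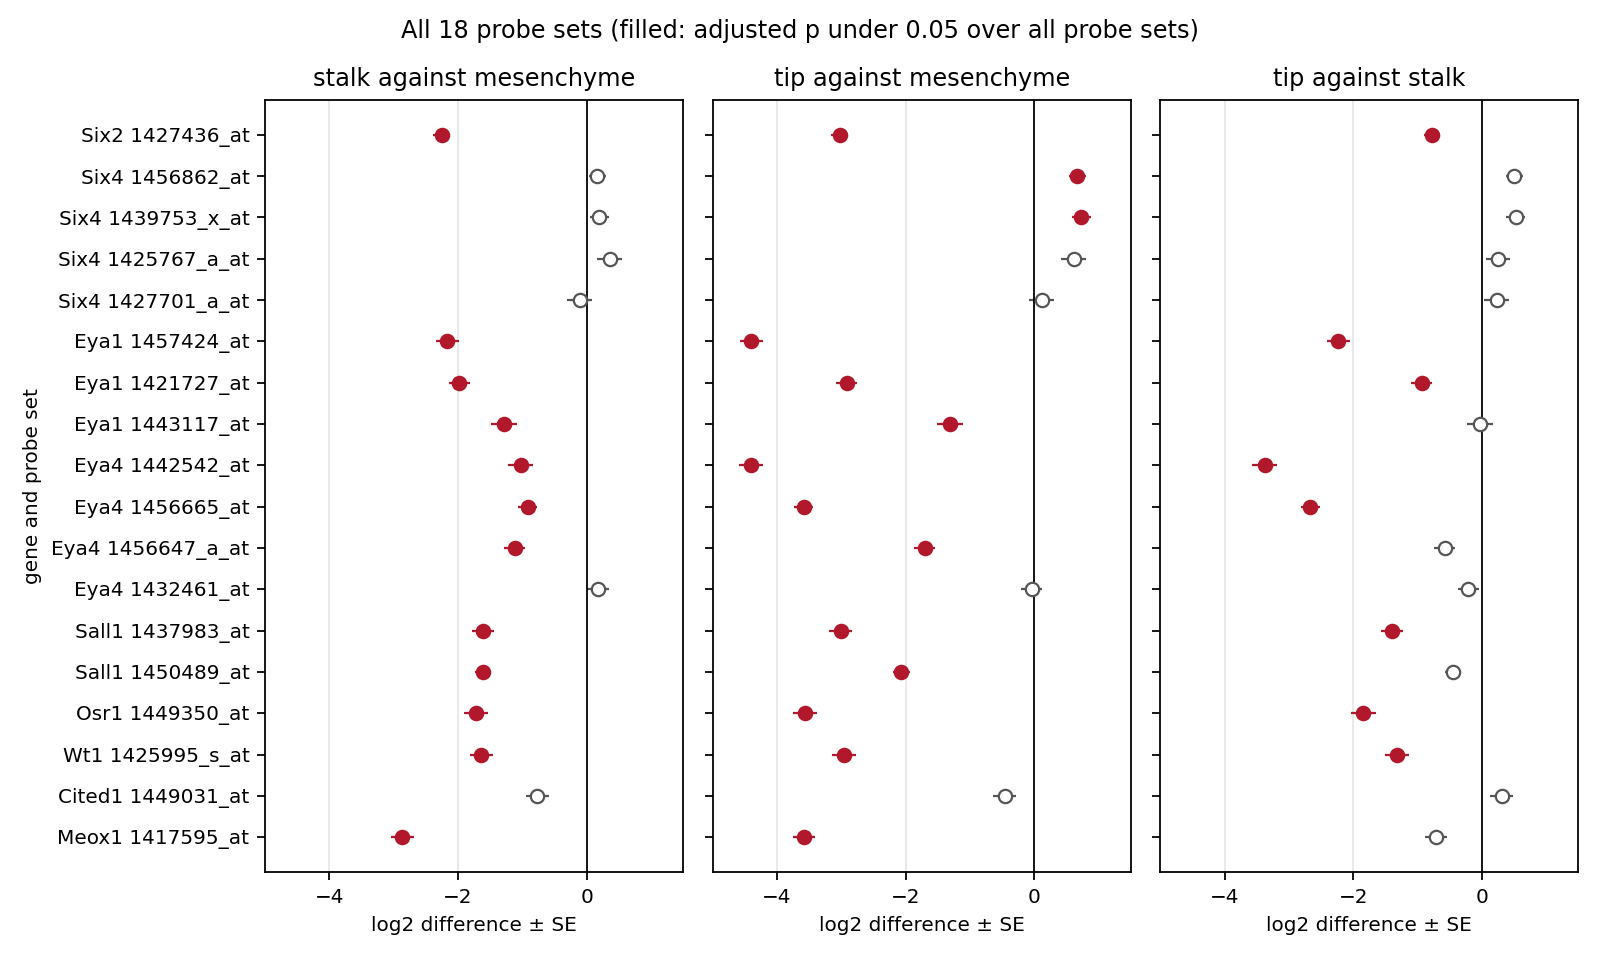
Log2 differences with SE (x axis) of all 18 probe sets (y axis) in the 3 comparisons; filled points were called in a limma fit over 45037 probe sets. The points of 2 Eya4 probe sets shift furthest from the first to the second panel, the Six4 points lie near or above 0, and the dim Eya1 and Eya4 probe sets lie nearest to 0 among those of their genes.

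The zinc finger genes formed the next group. Sall1, whose loss stops the bud from invading the mesenchyme, read 10.77 and 10.71 in mesenchyme, 9.20 and 9.05 in stalk and 7.96 and 7.50 in tip. Its arrays went down in 2 clear steps, of -1.61 ± 0.17 from mesenchyme to stalk and -1.40 ± 0.17 from stalk to tip (limma adjusted p = 0.00134 and 0.00190). Its second probe set, 1450489_at, had the same first step (-1.61 ± 0.13), while its second step of -0.45 ± 0.13 was called with the replicate block (adjusted p = 0.0293 against 0.0989). The mean of both gave -0.92 for tip against stalk.

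Osr1, an early marker of the intermediate mesoderm from which the kidney arises, read 8.97 and 8.49 in mesenchyme, 7.09 and 6.94 in stalk and 5.03 and 5.31 in tip. It fell in 2 steps of like size, -1.72 ± 0.19 and -1.84 ± 0.19 (limma adjusted p = 0.00155 and 0.000796), to an 11.8-fold lower level in tip than in mesenchyme. Both tip arrays placed Osr1 below their own medians over all probe sets (5.52 and 5.62), so its remaining level there is poorly measured. Wt1, needed for survival of the mesenchyme and later a podocyte factor, read 9.54 and 9.39 in mesenchyme, 7.81 and 7.85 in stalk and 6.76 and 6.25 in tip. Its steps were -1.64 ± 0.18 and -1.32 ± 0.18 (limma adjusted p = 0.00160 and 0.00328). Its single probe set, 1425995_s_at, carries the suffix of sets that may match more than 1 transcript. The podocyte gene Nphs1 lay between 4.13 and 4.56 on the 6 tissue arrays, below each array's median, and was called in none of the comparisons.

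Cited1 and Meox1 complete the set and differed from each other. Cited1, a co-regulator that does not itself bind DNA and marks the uninduced cap of progenitors, read 8.42 and 8.09 in mesenchyme, 7.51 and 7.47 in stalk and 7.99 and 7.59 in tip. Tip lay between the other tissues and spanned most of the gap between them, but no pair of groups overlapped. For stalk against mesenchyme the difference of -0.77 ± 0.18 missed the threshold (limma adjusted p = 0.0534). It passed in 8 of 13 alternatives, the replicate block among them (limma adjusted p = 0.00404, with 0.00404 to 0.264 over the alternatives). Of these 8, the fit of the 2 groups compared and those without either tip array were the same fit. Tip differed from mesenchyme by -0.46 ± 0.18, with a 95% confidence interval of -0.88 to -0.05 before adjustment, and was not called (limma adjusted p = 0.150). It was called with the replicate block (adjusted p = 0.0238) and without tip replicate 1 (adjusted p = 0.0471), with 0.0238 to 0.558 over the alternatives. Both intervals exclude a fall as large as that of Six2 in the same comparison.

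Meox1, a homeobox gene best known from the somites, read 10.31 and 9.88 in mesenchyme, 7.13 and 7.33 in stalk and 6.53 and 6.50 in tip. No other gene of the 18193 had a lower difference for stalk against mesenchyme: it was -2.87 ± 0.17, a 7.29-fold lower level (limma adjusted p = 8.07e-05). In tip it was 11.9-fold lower than in mesenchyme (-3.58 ± 0.17). The step from stalk to tip was small, -0.71 ± 0.17 (limma adjusted p = 0.0392), and was not called after median centring of the arrays (adjusted p = 0.0664). Leaving out stalk replicate 1, stalk replicate 2, tip replicate 1 or tip replicate 2 also ended that call (adjusted p = 0.110, 0.261, 0.0711 and 0.115; 0.00745 to 0.261 over the alternatives). The stalk difference was 80.1% of the tip difference, beside 74.6% for Six2, 55.4% for Wt1 and 48.3% for Osr1, the other genes called lower with a single probe set. Where a gene had several, the share depended on the probe set: it was 53.6% and 78.1% for Sall1 and 49.3%, 67.9% and 97.6% for Eya1.

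Over the probe sets themselves, 12 of 18 were called lower in stalk than in mesenchyme and 0 higher, where 0.653% of all probe sets were lower and 2.5% higher. In tip 12 were lower and 2 higher, beside 5.52% and 4.78% of all probe sets. For tip against stalk 8 were lower and 0 higher, beside 4.56% and 1.71%. With the replicate block 11 were lower and 2 higher, beside 7.89% and 5.38% of all probe sets. The single Meox1 probe set was not called for tip against stalk when p was adjusted over all probe sets (adjusted p = 0.0552).

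Paralogs of the members did not move as a group. Of 12 measured, 1 was lower and 3 were higher in stalk than in mesenchyme, beside 1.24% and 4.3% of all genes. In tip 4 were lower and 2 higher, beside 8.37% and 7.38%. Their median differences were -0.05 and 0.15. Meox2, the paralog of Meox1, read 9.02 and 8.62 in mesenchyme, 6.25 and 6.35 in stalk and 3.95 and 3.91 in tip. Its tip difference of -4.89 ± 0.16 was below that of every other gene measured. Sall4, the paralog of Sall1 known from pluripotent cells, ran the other way, from 5.41 and 5.59 in mesenchyme through 7.02 and 7.09 in stalk to 8.47 and 8.30 in tip (tip difference 2.89 ± 0.14; limma adjusted p = 9.2e-06). Cited4 was 3.15 ± 0.27 higher in tip than in mesenchyme and 1.49 ± 0.27 higher in stalk. Six3, Six6, Eya3, Sall3 and Cited2 were called in none of the 3 comparisons.

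Other genes of the progenitor network were taken from a list of 23, of which 21 were measured. In tip 15 were lower than in mesenchyme and 4 higher, with a median of -2.39. In stalk 6 were lower and 0 higher, with a median of -0.46. For tip against stalk 13 were lower and 3 higher, with a median of -1.29. Over all genes 8.37% were lower and 7.38% higher in tip, and 1.24% and 4.3% in stalk. For tip against stalk these shares were 6.97% and 2.86%. Gdnf, the gene for the branching signal, read 8.91 and 8.71 in mesenchyme, 7.08 and 7.16 in stalk and 6.10 and 5.87 in tip, 2 steps as in Wt1 and Sall1 (stalk difference -1.68 ± 0.14; limma adjusted p = 0.00042). Crym, which encodes a thyroid hormone binding protein, was lower by -2.29 in stalk and -4.04 in tip, and Spock2, a proteoglycan gene, by -1.47 and -2.39.

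A second kind of pattern in this list resembled that of the brightest Eya4 probe set in that the larger step lay between stalk and tip. The integrin gene Itga8, whose product binds nephronectin from the bud, read 10.05 and 9.75 in mesenchyme and 9.58 and 9.41 in stalk, and was called lower in tip (-3.38 ± 0.21) but not in stalk. Fat4, an atypical cadherin gene, had 10.07 and 10.27 in mesenchyme, 10.23 in both stalk arrays and 6.95 and 6.74 in tip. Cdh11, a cadherin gene of mesenchyme, had a difference of -3.02 ± 0.16 for tip against stalk. The 4 HOX genes of the list, Hoxa10, Hoxa11, Hoxd10 and Hoxd11, singled out after their values were seen, were each called lower in tip (-3.29, -3.13, -3.04 and -3.07) and not called in stalk. Bmp7 and Dach1 were higher in tip, by 0.79 and 0.83.

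**Figure D3:**
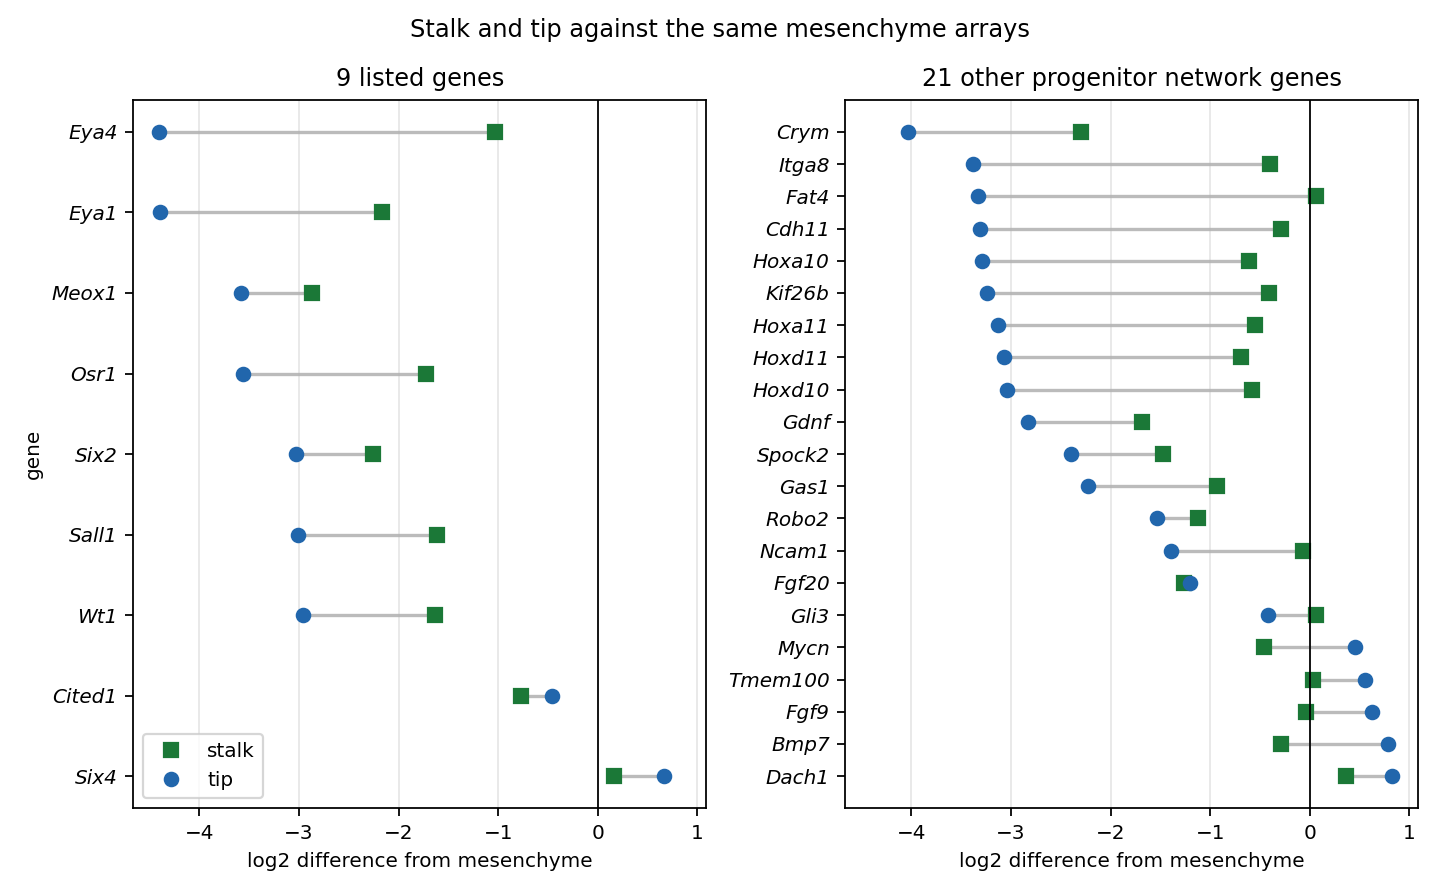
Log2 difference from mesenchyme (x axis) in stalk (squares) and tip (circles) for the 9 listed genes and 21 other genes of the progenitor network (y axis). The tip values of Itga8, Fat4, Cdh11 and the HOX genes lie below -3 while their stalk values lie above -1. Six2, Meox1, Eya1 and Crym have both values below -2. Both differences use the same mesenchyme arrays.

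Genes of the committing progenitors and early nephron followed no common course. Of 10 genes, 3 were higher and 0 lower in stalk, beside 4.3% and 1.24% of all genes. In tip 5 were higher and 1 lower, beside 7.38% and 8.37%. Lhx1, which is also active in the bud, was 4.24 ± 0.24 higher in tip than in mesenchyme, and the Notch ligand gene Jag1 2.02 ± 0.15 higher. Wnt4, the signal that starts epithelial conversion of the progenitors, was lower in tip (-0.90 ± 0.13; limma adjusted p = 0.00217) and was not called in stalk.

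Markers of other cells of the dissections moved with the members in tip. The counts below stand beside 8.37% of all genes lower and 7.38% higher in tip, and 1.24% and 4.3% in stalk. All 9 stroma markers were lower in tip than in mesenchyme, with a median of -3.31, and the summed linear intensity of the list was 12462 to 13103 in mesenchyme, 11366 to 11785 in stalk and 1478 to 1794 in tip. In stalk 4 of 9 were lower and 0 higher, with a median of -0.44, among them Ntn1 (-2.17) and Foxd1 (-1.18). Of the stroma markers not called there, Meis1 had -0.44, while Tcf21 (0.40), Col1a1 (0.25), Dcn (0.22) and Pdgfra (0.19) lay above 0. The same sum over the 9 members was 8252 to 9040 in mesenchyme, 2599 to 2732 in stalk and 1210 to 1460 in tip. These sums are carried by the brightest genes and were not tested against each other. Ureteric mesenchyme and smooth muscle markers summed to 1745 to 1983 in mesenchyme, 3299 to 3788 in stalk and 485 to 501 in tip. Of these 6, 4 were lower in tip, while in stalk 2 were higher (Tbx18 by 1.41 and Bmp4 by 1.04) and 1 was lower. Endothelial markers had 7 of 7 lower in tip and 3 of 7 in stalk (sums of 2208 to 2434, 1378 to 1458 and 521 to 556). Of 4 erythroid genes, 4 were lower in tip and 3 in stalk (23613 to 24057, 17710 to 18043 and 9569 to 9840). For 5 myeloid genes these counts were 3 and 1, with 1 gene higher in tip (637 to 647, 422 to 437 and 224 to 269), and for 4 neuronal and neural crest genes 2 and 2 (425 to 473, 241 on both stalk arrays and 197 to 200). Of 3 podocyte markers, 2 were lower in tip and 1 was higher in stalk (322 to 365, 398 to 431 and 132 to 138). Their part in the members' differences was not tested.

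The genes with the most similar pattern were sought by the distance between log2 values over the 6 tissue arrays, after each gene was centred on its own mean. Around Six2 these were Trim63 (distance 0.42), Ntn1 (0.55), 1110032F04Rik (0.61), Gdnf (0.62) and Hoxb1 (0.65), with Meox1 at place 7, Wt1 at place 8 and Sall1 at place 10. Unlike Six2, Trim63, 1110032F04Rik and Hoxb1 lay below the array medians in stalk and tip, as did Ntn1 in tip. Trim63 (3.895 on both tip arrays) lay below the lower quartiles there (4.04 and 4.23), so part of this likeness rests on poorly measured values. Around Wt1 they were Sall1 (0.17), Gdnf (0.28), Zfp703 (0.41), Ankrd6 (0.41) and 1110032F04Rik (0.45). On their brightest probe sets, Wt1 and Sall1 were thus each close to the other on every array once centred, with Pearson's r of 0.999 over these arrays. The second Sall1 probe set, 1450489_at, had a smaller step from stalk to tip (-0.45) than Wt1 (-1.32). Around Osr1 they were Adamts12 (0.40), G6pc2 (0.48), Snap91 (0.52), Colec12 (0.57) and Nefl (0.59). G6pc2 also lay below the lower quartiles of both tip arrays (3.78 and 3.45). From Six2, Cited1 stood at place 1063, Eya4 at place 1171 and Six4 at place 16923. These arrays share their dissections, and no test was made of likeness.

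In mIMCD-3 the members did not share a level relative to tissue. The cell line lay below all 6 tissue arrays for 5 of the 9 genes and within their range for 4, while 34.4% of all genes lay below. Below were Six2 (5.90), Wt1 (5.11), Cited1 (4.32), Meox1 (5.51) and Six4 (7.44). Cited1, well measured in all tissues, had a difference of -3.16 from its stalk mean and lay in the lower part of the cell line's own distribution, under its median of 5.39. Wt1 lay there as well.

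For Eya4 the probe sets differed in where they placed the cell line. The brightest read 8.44 in mIMCD-3, -0.25 from its stalk mean and 3.13 above its tip mean. Probe set 1456665_at was -0.09 from stalk and 2.58 above tip. By contrast, 1456647_a_at read 5.01, which was 0.22 above its tip mean, -0.36 from stalk and -1.48 from mesenchyme, and so nearest to tip. Osr1 read 7.45, which was 0.44 above the stalk mean, 2.28 above the tip mean and -1.28 from the mesenchyme mean. Eya1 read 7.80 on its brightest probe set, between stalk and tip, but 5.46 on 1421727_at, below all tissue arrays. Sall1 read 7.64 on its brightest probe set, within the range of the tip arrays, and 6.29 on 1450489_at, above both tip arrays (6.15 and 6.10).

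The Six4 probe sets disagreed in the cell line. Of the 4, 1456862_at, 1439753_x_at and 1427701_a_at put mIMCD-3 below every tissue array, whereas 1425767_a_at read 8.59 there, above the highest tissue value of 8.13. Over all 18 probe sets, 8 were below, 9 within and 1 above the tissue range. The share over all probe sets of the array was not computed. Of all 18193 genes on their brightest probe sets, 6256 were below, 6347 within and 5590 above. With 1 array of the line none of these differences has a replicate check.

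**Figure D4:**
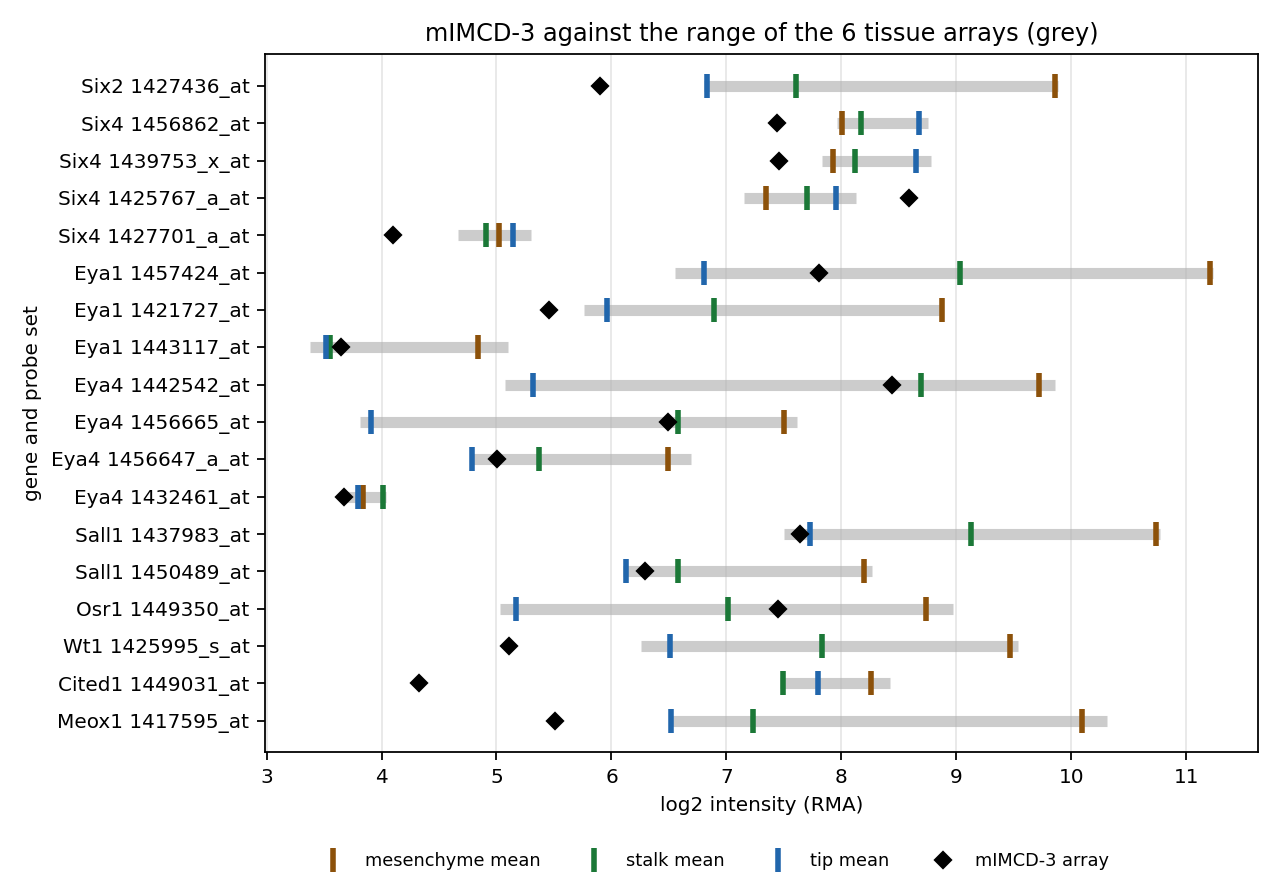
Log2 RMA intensity (x axis) of the 18 probe sets (y axis): grey bars span the 6 tissue arrays, coloured marks are the means of 2 arrays a tissue, and black diamonds are the single mIMCD-3 array. The diamonds of Eya4 1442542_at and 1456665_at lie at -0.25 and -0.09 from their stalk marks, and that of Osr1 at 0.44. Other diamonds lie as near to stalk, among them Sall1 1450489_at (-0.29) and Eya1 1443117_at (0.10). That of Six4 1425767_a_at lies right of its grey bar.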

How the data were processed

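RNA of 7 samples was measured on whole-genome mouse arrays made by Affymetrix, as the series text states. The deposited values are intensities on a linear scale that the authors obtained by RMA over all 7 arrays together, per the series text and the submitters' processing notes; software and version are not given in the sources used here. RMA is meant to equalise the distributions of the arrays, gives no detection calls and compresses folds of dim genes. The arrays still differed here, with log2 upper quartiles from 7.52 (tip 2) to 7.86 (mIMCD-3). Values were converted to log2, and 64 control probe sets were left out. Gene names come from the array annotation, and 34945 probe sets list 1 gene.

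Limma 3.58.1 in R 4.3.3 fitted a coefficient per tissue (3 residual degrees of freedom, two-sided tests), without mIMCD-3 and with no filter, after a check on simulated data. The members and gene lists were chosen with earlier results of these data known. Text names come from the members, up to 3 called genes per list and comparison with the largest differences, and the 5 most similar genes of Six2, Osr1 and Wt1. Nphs1, Bmp7, Dach1, the HOX genes, and the paralogs and stroma markers that were not called were named after their values were seen. Some genes of the lists were not analysed here and are not reported. Marker sums add linear intensities of the brightest probe sets.

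Replicate numbers were checked for pairing. The gap between the replicates of a tissue was taken per probe set. It correlated between tissues at 0.39 (mesenchyme, stalk), 0.57 (mesenchyme, tip) and 0.43 (stalk, tip), all above 0.1, the threshold set for pairing. The main fit nevertheless left the pairing out. Only an alternative, the fit with the replicate block (2 residual degrees of freedom), treated the numbers as pairs. Others were trend and robust variance, centred arrays, leaving out the dimmest 40% of genes, other choices of probe set, fits of 2 groups and leaving out each array. Plots were made in Python 3.11.15 with matplotlib 3.10.9.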

Additional observations from a re-analysis of the deposited data

How the results depend on the processing

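No difference of a listed gene changed sign in any of 13 alternatives. The block, trend and robust variance, leaving out the dimmest 40% of genes and fits of 2 groups cannot change a difference, only its p. Leaving out an array of the third tissue gave the same fit as that of the 2 groups compared. The sign could thus change only in the rest, and the 351 gene values hold repeats. Of them, 325 kept their side of the threshold, 15 became called and 11 lost the call, as given beside the genes. Leaving out an array, the lower counts of listed genes were 6 to 8 for stalk against mesenchyme, 7 to 8 for tip against mesenchyme and 5 to 7 for tip against stalk, and the higher counts 0 to 1 for tip against mesenchyme and 0 to 1 for tip against stalk (main counts 1 and 0). The listed gene higher in tip than in stalk was 1, Six4, with the replicate block, trend and robust variance, centred arrays or without the dimmest 40% of genes, and listed probe sets higher there numbered 2 with the block. The block changed no other call of a listed gene than those named.

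Counts over all genes moved more. With the replicate block 577 genes were lower and 1231 higher in stalk than in mesenchyme (225 and 782 without), 2331 and 2037 in tip than in mesenchyme (1523 and 1342), and 2131 and 1623 in tip than in stalk (1268 and 521). Trend and robust variance gave 354 lower for stalk against mesenchyme and 890 higher for tip against stalk. Leaving out an array gave 92 to 316 lower and 427 to 922 higher for stalk against mesenchyme, 987 to 1927 and 899 to 1508 for tip against mesenchyme, and 724 to 1789 and 197 to 769 for tip against stalk. Centring arrays on their medians shifted tip against stalk by 0.12, with 1024 higher and 1085 lower, so that 48.6% of calls were higher against 29.1%; the listed genes kept their directions. The cause of these moves was not tested. Of the 5 most similar genes, Pearson's r gave 0 of the same for Six2, 2 for Osr1 and 1 for Wt1. With 2 arrays a group and no detection calls, values near an array's lower quartile cannot be told from background.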
